A study of Homo sapiens with 4 samples.

Results

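The genes described here belong to the interferon response and to antigen presentation by MHC class I. They are 33 named genes: 6 transcription factors that carry the interferon signal, 19 antiviral effectors and 8 genes of class I molecules and peptide loading. They were looked up among the probe sets that the array annotation pairs with exactly 1 gene symbol. Where a gene had several such probe sets, the one with the highest mean over the arrays stood for the gene and the others are given beside it. A gene was analysed if at least 1 array reached a log2 value of 5. Of the 33 genes 30 had such a probe set and 17 were analysed. Over all genes 8225 had such a probe set and 3588 were analysed. For STAT2, HLA-B and HLA-C there was no probe set of a single symbol, and they were not analysed here.

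RNA of the established colon carcinoma line LS180, of human origin, was measured on 4 Affymetrix HG-U95Av2 arrays with 1 array per group. The groups were polysomal RNA of RBM35A+ cells, polysomal RNA of RBM35A- cells, total RNA of RBM35A+ cells and total RNA of RBM35A- cells. RBM35A+ cells were Tet-off LS180-RBM35A cells grown without doxycycline for at least 6 days, which turns on RBM35A, an epithelial RNA-binding protein now called ESRP1. RBM35A- cells stayed in doxycycline. The labels call these cells parental and do not say whether they held the RBM35A construct, so doxycycline, RBM35A and possibly the line changed together and cannot be told apart. The labels mention no separate clones. Polysomal RNA, bound by several ribosomes per transcript, was pooled from sucrose gradient fractions. The study asked how RBM35A alters total and polysomal mRNA.

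The array held 0 probe sets annotated to RBM35A, and nothing measured here checks which cells expressed it. Of 12 colon epithelium markers 11 were analysed, all but KRT20, while 0 of 16 haematopoietic and 1 of 15 fibroblast and endothelial markers (COL1A1, in polysomal RNA) reached 5. On each polysomal array 34.2% of probe sets reached 5, and 33.8% did on each total RNA array. With 1 array per group there is no replicate and no test of a difference between a pair of arrays.

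As background, cells that sense viral nucleic acid activate IRF3 and IRF7 and secrete interferons. Type I interferons act through a complex that includes STAT2 and IRF9 and binds the interferon-stimulated response element (ISRE), while interferon gamma acts on the GAS element and through IRF1. Their targets include proteins that block viral entry, replication or translation, and the class I heavy chains with B2M and the TAP transporter, which display peptides to T cells. Many of these genes also have a basal level in epithelial cells that were never exposed to interferon.

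Promoter stretches are given first, since the ISRE is the element through which many of these genes are known to respond. RefSeq promoter windows of GRCh38.p14 were found for 24 of the 33 members, and the 250 bases before each transcript start were searched on both strands. The ISRE core was taken as GAAA, any 2 bases and GAAA again, or on the other strand TTTC, any 2 bases and TTTC. The GAS element was taken as TTCNNNGAA, which reads the same on both strands. These stretches hold ISRE matches, in capitals, and are read in the direction of transcription. Matches that overlap run together. The first 5 belong to members with values of 5 or more:
ISG15, chr1:1013369-1013414, + strand: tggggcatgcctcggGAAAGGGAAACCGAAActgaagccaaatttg
IFI27, chr14:94110613-94110665, + strand: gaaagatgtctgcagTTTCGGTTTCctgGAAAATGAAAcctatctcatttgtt
IFITM3, chr11:320871-320927, - strand: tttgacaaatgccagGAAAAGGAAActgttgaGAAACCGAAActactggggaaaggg
B2M, chr15:44711358-44711403, + strand: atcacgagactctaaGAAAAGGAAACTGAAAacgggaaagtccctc
TAP1, chr6:32853808-32853853, - strand: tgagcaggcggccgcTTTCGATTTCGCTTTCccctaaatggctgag
The other 4 belong to members below 5 on all 4 arrays:
IFI6, chr1:27672261-27672363, - strand: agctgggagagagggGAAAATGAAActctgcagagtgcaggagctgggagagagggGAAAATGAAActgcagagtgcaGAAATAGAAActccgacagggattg
IFIT1, chr10:89392492-89392544, + strand: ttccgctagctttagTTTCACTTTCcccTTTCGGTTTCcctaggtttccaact
IFIT3, chr10:89327826-89327899, + strand: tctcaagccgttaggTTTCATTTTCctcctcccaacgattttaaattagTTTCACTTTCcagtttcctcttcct
BST2, chr19:17405730-17405775, - strand: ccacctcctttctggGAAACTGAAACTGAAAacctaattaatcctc

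Both kinds of member held the element. An ISRE match was found for 9 of 13 analysed members with a promoter (69.2%) and for 6 of 8 members below 5 (75%), against 3.71% of all 27305 genes with a promoter. The genes were listed for their part in the interferon response or in class I presentation, so a high share describes the list and is no finding of these arrays. GAS matches were found for 5 of the 13 (38.5%) and 4 of the 8 (50%), against 8.09% of all genes. In IFI27, MX1 and BST2 a GAS match overlapped an ISRE match. The letters searched were not in the windows of EIF2AK2, ADAR, STAT2, HLA-B and HLA-C, which says nothing about the factors that bind there. A match is a description of the sequence and was not tested as a binding site.

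**Figure D1:**
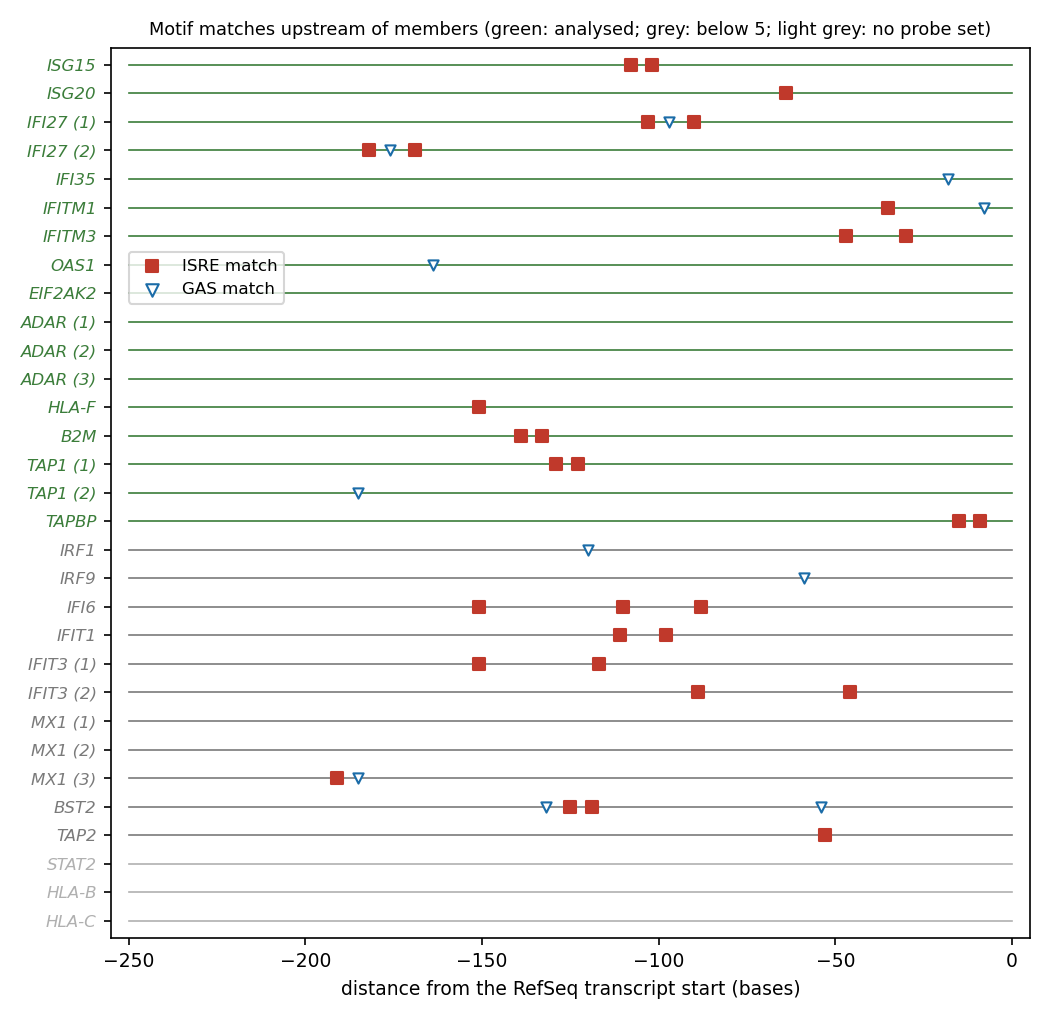
Positions of ISRE (filled squares) and GAS (open triangles) matches in the 250 bases before each RefSeq transcript start of the members, in bases from the start. Numbers in brackets mark different starts of one gene. Windows of analysed members (green) and of members below 5 (grey) both hold ISRE matches.

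Of the 30 members with a probe set 17 reached 5, beside 3588 of 8225 genes in all. The other 13 stayed below 5 on all 4 arrays, with a highest value of 4.50 (IRF9 in total RNA of RBM35A+ cells). They were the signalling factors IRF1, IRF2 and IRF9, the effectors IFI6, IFIT1, IFIT2, IFIT3, IFITM2, MX1, MX2, OAS2 and BST2, and the transporter subunit TAP2. IFIT proteins bind viral RNA, MX proteins are dynamin-like GTPases that trap viral components, and BST2 (tetherin) holds budding virions at the cell surface. For 9 of the 13 the value lay within 1 log2 unit of the lowest value of every array, 2.22. The other 4 were IRF9, with 4.37 in RBM35A+ and 4.32 in RBM35A- polysomal RNA, IRF2, with 3.60 and 3.48 in total RNA, MX1, with 3.41 and 3.40 in polysomal RNA, and BST2, with 3.24 and 3.23 in polysomal RNA. Their RBM35A+ and RBM35A- values lay close together, but at this signal a difference is not measured. For 5 of them a second probe set was also below 5. Neighbouring relatives were split: IFITM1 and IFITM3 were analysed and IFITM2 was not, and likewise OAS1 but not OAS2 and TAP1 but not TAP2. A probe set below 5 does not show that the gene is silent, since probe sets differ in how well they respond.

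**Figure D2:**
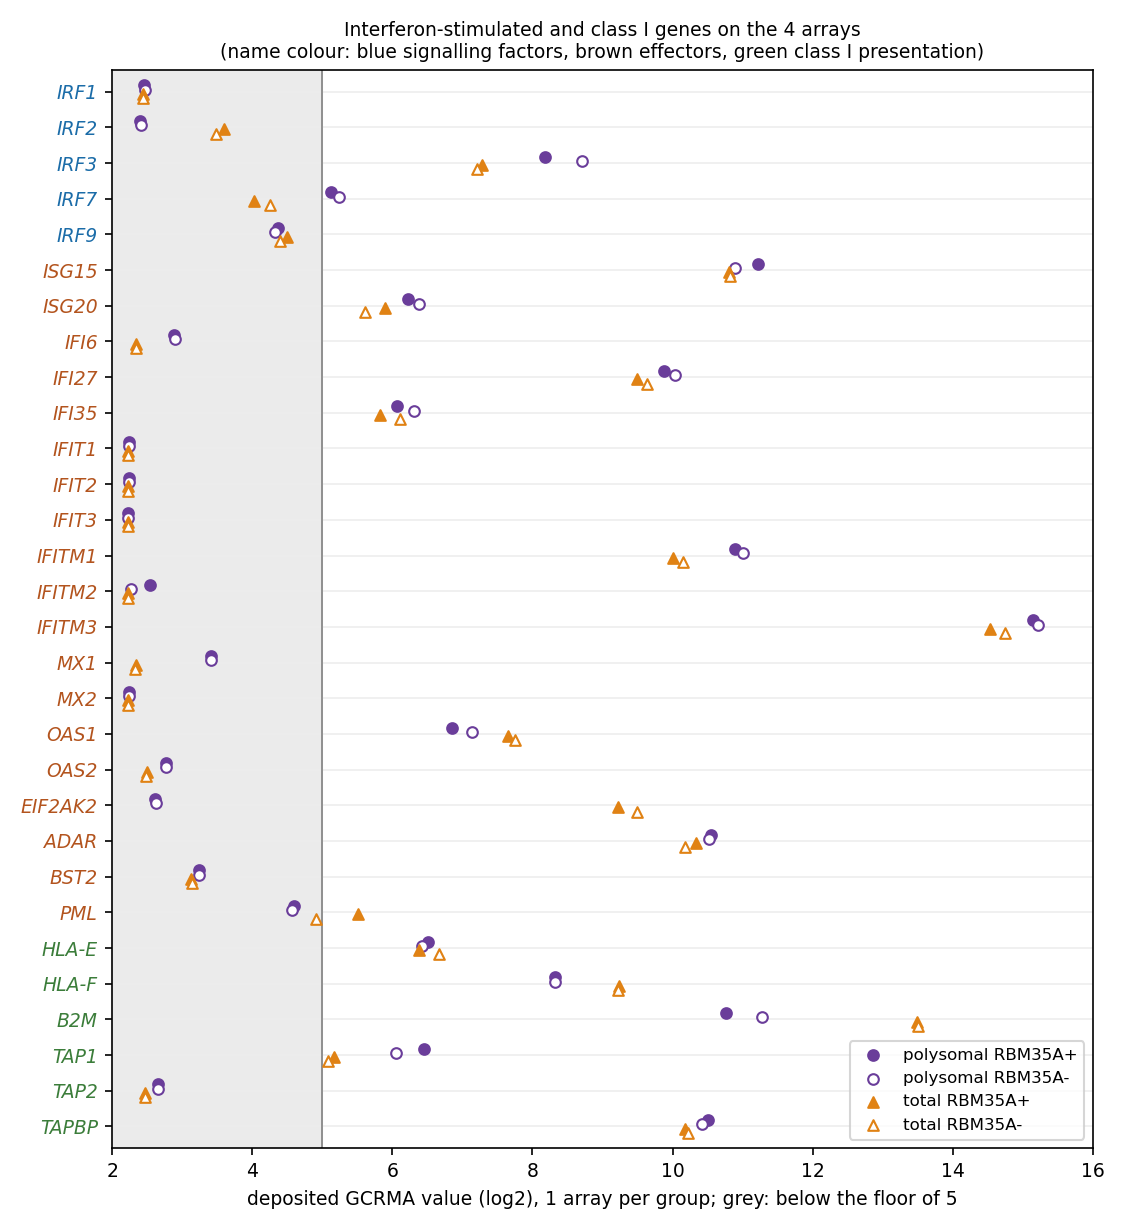
Deposited log2 values of the 30 members with a probe set, 1 point per array: polysomal RNA (circles) and total RNA (triangles), RBM35A+ filled and RBM35A- open. Grey marks values below 5. In each row the RBM35A+ and RBM35A- points of one fraction lie closer together than 1 log2 unit, and IFIT1, IFIT2, IFIT3 and MX2 sit close to the lowest value of the arrays.

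With the floor of 5, the members with a value differed by less than 1.5-fold between RBM35A+ and RBM35A- cells in either fraction. Members without a value are not covered. Regardless of sign, the median size of the members' differences was 0.15 in polysomal and 0.15 in total RNA. Over all genes it was 0.12 and 0.14. In polysomal RNA 0 of 15 members with a value were 1.5-fold or more higher (0.585 on the log2 scale), against 0.767% of 3391 genes, and 0 were 1.5-fold or more lower, against 1.3%. In total RNA the counts were 0 of 16 higher, against 1.54% of 3320 genes, and 0 lower, against 0.663%. Such background shares amount to less than 1 gene in a list of this size, so the counts do not set the list apart. The median difference was -0.11 in polysomal RNA and -0.03 in total RNA, beside 0.02 and 0.0021 over all genes. The SD over members was 0.26 in polysomal and 0.22 in total RNA, beside 0.22 and 0.23 over all genes. As a scale for single values, probe sets of the same gene (339 genes with several probe sets of 5 or more on all arrays) disagreed with an SD of 0.20 in polysomal and 0.19 in total RNA. This covers probes and not the spread between cultures. It is smaller than the SD over all genes, so a value that exceeds it is not thereby unusual. In RNA of a whole culture, fewer cells that express a gene and less RNA per cell cannot be told apart.

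Among the signalling factors, IRF3, the sensor-activated factor that starts interferon transcription, read 8.18 in RBM35A+ and 8.71 in RBM35A- polysomal RNA. Its total RNA values were 7.27 in RBM35A+ and 7.20 in RBM35A- cells. The polysomal difference of -0.53 (0.69-fold) was the lowest of the members and exceeded the probe set SD of 0.20, while the total RNA difference was 0.07. IRF7, which amplifies the interferon signal, read 5.13 in RBM35A+ and 5.24 in RBM35A- polysomal RNA and was below 5 in total RNA.

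Beside the polysomal values stand those of control probe sets along 2 abundant transcripts. At the 5′ end the polysomal RBM35A+ minus RBM35A- difference was -0.86 for beta-actin (9.42 and 10.29) and -0.79 for GAPDH (12.03 and 12.81). For the middle probe sets it was -0.44 and -0.33, and at the 3′ end -0.02 and -0.13. In total RNA the 5′ differences were -0.05 and -0.03, the middle ones 0.27 and -0.11, and the 3′ ones -0.06 and -0.16. Where along its transcript the IRF3 probe set lies is not known here, and the part of this end difference in the IRF3 and B2M values was not tested.

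The antiviral effectors had median differences of -0.13 over 8 measured members in polysomal and -0.12 over 10 in total RNA. In polysomal RNA 6 of the 8 were below 0, beside 1451 of 3391 genes in all, and in total RNA 7 of the 10, beside 1636 of 3320. Interferon-induced effectors outside the list had medians above 0, at 0.12 in polysomal and 0.27 in total RNA, with 4 of 5 above 0 in each. Of the 11 colon epithelium markers 8 were below 0 in polysomal and 4 in total RNA, and their part in the effector values was not tested. IFI35, a leucine zipper protein that partners with NMI, read 6.06 in RBM35A+ and 6.31 in RBM35A- polysomal RNA and 5.82 and 6.12 in total RNA. Its differences of -0.25 and -0.30 were alike in both fractions. The name of this probe set marks shared sequence. Its other probe set was below 5, at 3.83 in RBM35A+ and 3.83 in RBM35A- polysomal RNA and 4.66 and 4.41 in total RNA. With the mean of both probe sets the differences were -0.07 in polysomal and -0.02 in total RNA. The polysomal one is a bound, since the mean in RBM35A+ cells was below 5 and was raised. Both means include the probe set below 5.

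OAS1 makes oligoadenylates that activate RNase L. It read 6.85 in RBM35A+ and 7.14 in RBM35A- polysomal RNA (-0.29) and 7.65 and 7.75 in total RNA (-0.10), with another probe set below 5. IFI27, a small hydrophobic protein induced by type I interferon, read 9.88 in RBM35A+ and 10.03 in RBM35A- polysomal RNA (-0.16). In total RNA it read 9.50 in RBM35A+ and 9.64 in RBM35A- cells (-0.14). Of these values the OAS1 difference in polysomal RNA exceeded the probe set SD.

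The IFITM proteins sit in membranes and block fusion of entering viruses. IFITM1 read 10.89 in RBM35A+ and 11.01 in RBM35A- polysomal RNA (-0.12), and 10.00 and 10.15 in total RNA (-0.15). IFITM3 read 15.15 in RBM35A+ and 15.21 in RBM35A- polysomal RNA (-0.07), and 14.53 and 14.75 in total RNA (-0.21). All 4 differences were below 0, and that of IFITM3 in total RNA was just over 1 probe set SD. IFITM transcripts are close relatives, so their probe sets may share targets.

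ISG15, a ubiquitin-like protein that is joined to other proteins during the response, went the other way in polysomal RNA. It read 11.23 in RBM35A+ and 10.89 in RBM35A- polysomal RNA (0.34), and 10.80 and 10.82 in total RNA (-0.02). Its other probe set read 8.85 and 8.62 (0.23) in polysomal and 7.65 and 7.86 (-0.21) in total RNA. Both probe sets were thus higher in RBM35A+ polysomal RNA and not in RBM35A+ total RNA.

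ISG20 is an exonuclease that degrades RNA. It read 6.22 in RBM35A+ and 6.37 in RBM35A- polysomal RNA (-0.15), and 5.90 and 5.60 in total RNA (0.29). The RNA-editing enzyme ADAR, which turns adenosine into inosine in double-stranded RNA, read 10.55 in RBM35A+ and 10.53 in RBM35A- polysomal RNA (0.03). In total RNA ADAR read 10.33 in RBM35A+ and 10.17 in RBM35A- cells (0.16). The ISG20 signs were opposite in the fractions, and of its differences that in total RNA exceeded 1 probe set SD.

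PML, the organiser of nuclear bodies, read 5.51 in RBM35A+ total RNA and was below 5 on the other 3 arrays, which makes it at least 1.43-fold higher in RBM35A+ total RNA. Its measured value in RBM35A- total RNA was 4.91, so without the floor the difference is 0.60, past 1.5-fold. The name of the PML probe set with these values marks shared sequence. The 3 other PML probe sets were below 5 on all arrays. EIF2AK2 is PKR, the kinase that stops translation when it binds double-stranded RNA. It read 9.22 in RBM35A+ and 9.49 in RBM35A- total RNA (-0.27) and was below 5 in polysomal RNA. Its other probe set read 5.41 and 5.63 in total RNA (-0.22) and 5.31 and 5.33 in polysomal RNA (-0.02).

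Among class I genes the picture differed by gene and by probe set. B2M, the light chain of every class I molecule, read 10.77 in RBM35A+ and 11.28 in RBM35A- polysomal RNA (-0.51), and 13.49 and 13.50 in total RNA (-0.01). Its other probe sets did not show this difference: they gave 0.12 and -0.06 in polysomal RNA and 0.11 and -0.03 in total RNA. A spread as wide as that of the 3 B2M probe sets in polysomal RNA (0.63) was seen in 18 of 407 genes, B2M included. The 407 genes had several probe sets measured there, whatever their number, and a median spread of 0.16.

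TAP1 and TAP2 form the peptide transporter of the endoplasmic reticulum, and TAPBP (tapasin) ties it to class I molecules. TAP1 read 6.45 in RBM35A+ and 6.05 in RBM35A- polysomal RNA (0.40, or 1.32-fold), the highest polysomal difference of the members, and 5.17 and 5.07 in total RNA (0.10). TAPBP read 10.51 in RBM35A+ and 10.42 in RBM35A- polysomal RNA (0.09), and 10.18 and 10.22 in total RNA (-0.04). The TAP1 difference in polysomal RNA exceeded the probe set SD and those of TAPBP did not.

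HLA-E is a class I molecule that binds an inhibitory receptor of natural killer cells. It read 6.50 in RBM35A+ and 6.43 in RBM35A- polysomal RNA (0.07), and 6.38 and 6.67 in total RNA (-0.29). HLA-F, another non-classical class I gene, read 8.33 in RBM35A+ and 8.32 in RBM35A- polysomal RNA (0.01) and 9.23 and 9.22 in total RNA (0.00). Its other probe set gave -0.08 in polysomal and -0.23 in total RNA. The names of both HLA-F probe sets mark them as shared between related sequences, so they are uncertain as to gene.

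**Figure D3:**
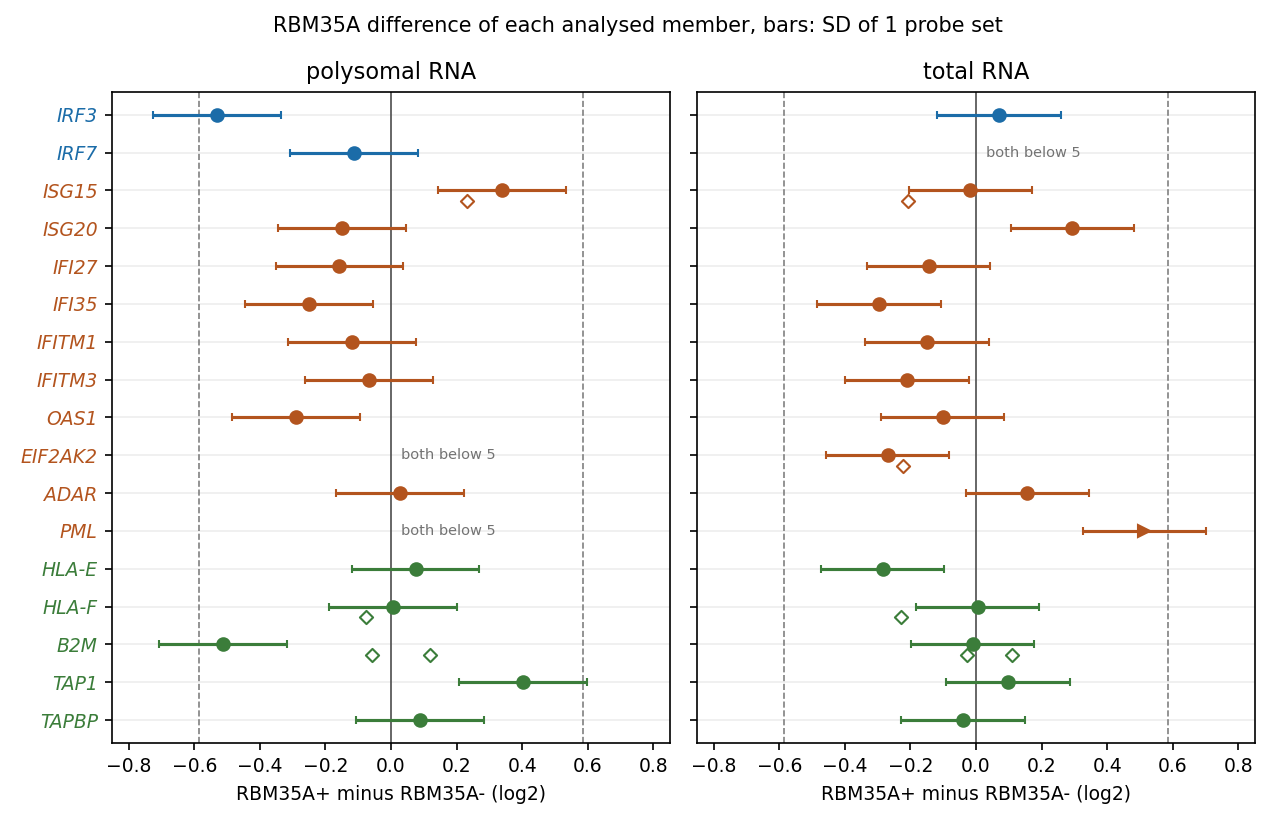
RBM35A+ minus RBM35A- (log2) of each analysed member in polysomal RNA (left) and total RNA (right). Filled points are the probe set with the highest mean, with bars of 1 probe set SD (0.20 and 0.19); the triangle is a lower bound, open diamonds are other probe sets, and dashed lines mark 1.5-fold. Names are blue for signalling factors, brown for effectors and green for class I genes. No filled point passes a dashed line, and the open B2M diamonds lie away from its filled point at -0.51 in polysomal RNA.

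The RBM35A differences of the 2 fractions come from separate arrays. Of 14 members measured in both, 9 had the same sign in both fractions (64.3%), 6 of them lower and 3 higher in RBM35A+ cells, beside 60% of 3082 genes in all. For the difference of differences, polysomal minus total, 0 of 14 members were 1.5-fold or more higher, against 1.02% of 3123 genes. On the lower side was 1 member, IRF3 at -0.60, against 2.4% of genes. B2M (-0.50) and ISG20 (-0.44) lay next to it, and HLA-E (0.36), ISG15 (0.36) and TAP1 (0.30) were highest. The other B2M probe sets gave 0.01 and -0.03. The probe set SD of this quantity was 0.24.

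**Figure D4:**
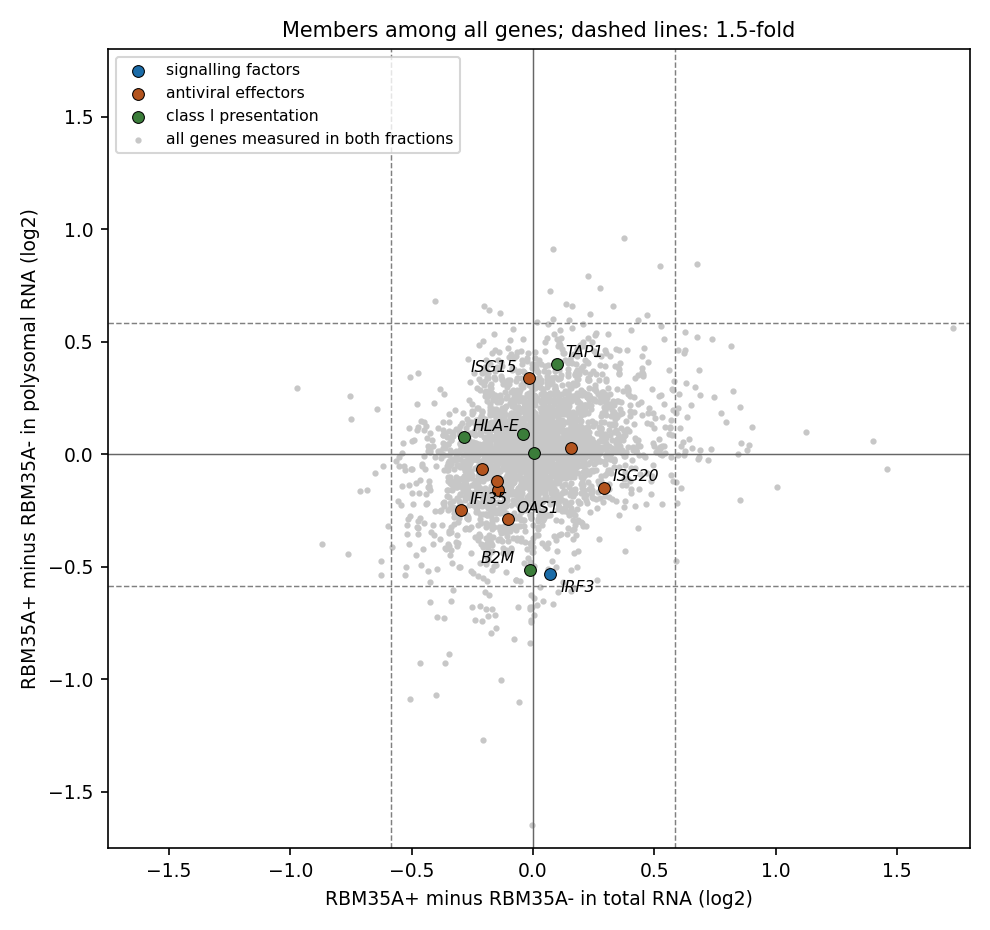
RBM35A+ minus RBM35A- (log2) in total RNA (horizontal) and polysomal RNA (vertical), 1 point per gene: 14 members in colour by role, all genes measured in both fractions in grey, dashed lines at 1.5-fold. The members lie inside the central square, with IRF3 and B2M at its lower edge.

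An additive model of fraction and RBM35A state, fitted with limma over all 3588 genes, uses both fractions together. Its single residual degree of freedom holds the interaction, and limma draws each gene's variance towards a value shared by all genes. The p-values of the model ask whether the mean RBM35A difference over both fractions is other than 0 and cannot speak for other cultures. It called 0 members and 0 genes in all (0%) at an adjusted p under 0.05. At an unadjusted p under 0.05 there were 1 of 17 members (5.88%) and 369 of all genes (10.3%). That member was IFI35, at -0.27 with an SE of 0.10 (adjusted p = 0.442 with limma), a value of its shared-sequence probe set. TAP1 was at 0.25 with an SE of 0.12 (adjusted p = 0.519 with limma), and HLA-F at 0.01 with an SE of 0.10. A p above the threshold does not show that a member was the same in both kinds of cell.

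Polysomal and total RNA were also set side by side. The fractions were normalized apart and prepared by different extractions, and the labels give polyA RNA for the polysomal arrays, though their protocols describe no such selection, so the values are descriptions. On this comparison the probe set SD was 0.73, larger than most members' differences. The mean polysomal minus total difference was 2-fold or more higher for 2 of 17 members, against 13.7% of 3588 genes, and 2-fold or more lower for 2, against 7.64%. The median of members was 0.25, beside 0.09 over all genes.

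On the higher side were IRF3, with polysomal minus total differences of 0.91 in RBM35A+ and 1.51 in RBM35A- cells, and TAP1, with 1.28 in RBM35A+ and 0.97 in RBM35A- cells. IFITM1 (0.87), ISG20 (0.55), IFITM3 (0.54), IFI27 (0.39), ADAR (0.29), TAPBP (0.27), ISG15 (0.25) and IFI35 (0.22) were above 0 by less than 2-fold, and IRF7 was above 0 by at least 0.18. The names of the ISG15 and IRF7 probe sets with the highest mean mark shared sequence. The other ISG15 probe set, whose name does not, gave 0.98. Below 0 lay OAS1 (-0.71), PML (-0.26, a bound in which RBM35A- cells, with both values below 5, count as 0; -0.51 in RBM35A+ cells), HLA-E (-0.06) and HLA-F (-0.90).

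The members at least 2-fold lower in polysomal RNA each had a probe set that said otherwise. The EIF2AK2 probe set with the highest mean was at least 20.5-fold lower in polysomal than in total RNA (-4.36 against the floor), while its other probe set differed by -0.20. B2M gave -2.47 (5.55-fold lower) at that probe set, but -0.26 and 0.01 at the others. HLA-F gave -0.90 and 1.20. A spread between probe sets as wide as that of EIF2AK2 (4.15) was seen in 5 of 489 genes with several probe sets, as wide as that of B2M (2.48) in 29, and as wide as that of HLA-F (2.11) in 43. Each of these counts includes the gene itself, and the median spread was 0.67. The names of the EIF2AK2, B2M and HLA-F probe sets with the highest mean mark shared sequence. Control probe sets gave polysomal minus total values of -4.91 (5′), -2.65 (middle) and -0.29 (3′) for beta-actin. For GAPDH they gave -2.21 (5′), -1.31 (middle) and -0.15 (3′). The place of these probe sets along their transcripts and any shared targets were not tested.

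**Figure D5:**
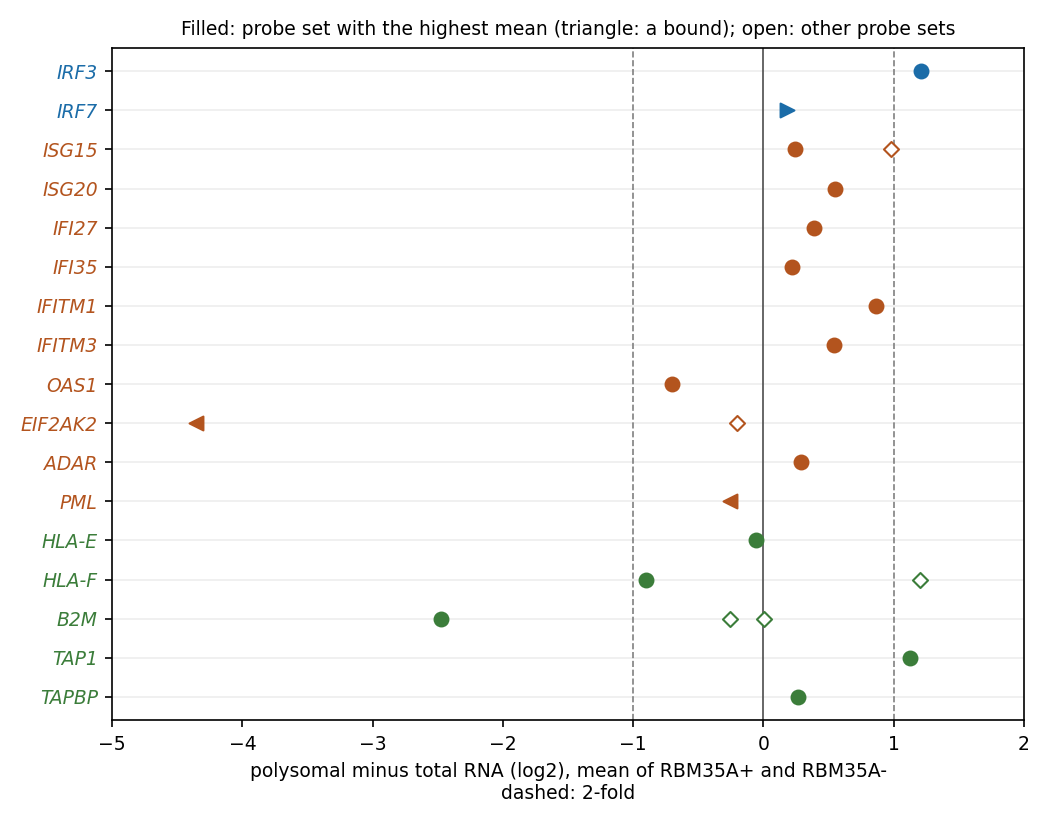
Polysomal minus total RNA (log2, mean of RBM35A+ and RBM35A- cells) of each analysed member. Filled marks are the probe set with the highest mean, triangles are bounds, open diamonds are other probe sets, and dashed lines mark 2-fold. For EIF2AK2 and B2M the filled marks lie at -4.36 and -2.47 while the open ones lie between -0.26 and 0.01.

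Of 83 other genes of the pathway, 70 had a probe set of a single symbol and 26 were analysed, beside 3588 of 8225 genes in all. The 26 included both chains of the interferon gamma receptor (IFNGR1 and IFNGR2), the kinases JAK1 and TYK2, and class I partners in the endoplasmic reticulum such as CALR, CANX and PDIA3. At the probe set with the highest mean 0 of these genes were 1.5-fold higher or lower in either fraction, beside the background shares given above. The other CALR probe set was past 1.5-fold lower in polysomal RNA (-0.73). The highest and lowest genes that follow are also by the probe set with the highest mean. In polysomal RNA the highest was HLA-DMA (0.54), which helps load class II molecules, at 7.35 in RBM35A+ and 6.81 in RBM35A- cells. The lowest was HLA-G (-0.32), at 8.38 and 8.70. Its other probe set gave -0.21, and the names of both mark shared sequence, so they are uncertain as to gene. In total RNA the highest was the chaperone CALR (0.40), at 12.28 in RBM35A+ and 11.88 in RBM35A- cells. The lowest was IFNGR1 (-0.48), at 6.16 and 6.65. Their medians were 0.05 in polysomal and 0.06 in total RNA.

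Of 26 other interferon-induced effectors with a probe set 5 were analysed, beside 3588 of 8225 genes in all. They were PLSCR1, LY6E, UBE2L6, LGALS3BP and WARS1, with differences from -0.12 to 0.30 in polysomal and -0.22 to 0.39 in total RNA. Of 9 class II genes with a probe set HLA-DMA alone was analysed.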

How the data were processed

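LS180 RNA, 10 µg per array by the labels' protocols, was hybridized to 4 arrays, 1 per group. The authors deposited log2 values. The submitters' processing notes name GCRMA, without a version, and a genome build is not given in the sources used here. Sorted values differed by at most 6.61e-06 between the polysomal arrays and 4.29e-06 between the total RNA arrays, but by up to 0.227 between fractions, so each pair was quantile normalized apart from the other.

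Of 12626 probe sets, 10943 had 1 gene symbol in the array annotation, 546 several, 1070 none and 67 were controls. By gene ID 10934 were given the current symbol of RefSeq (GRCh38.p14), used for names and promoters. Values below 5 were raised to 5 in differences. A difference with 1 raised value is a bound, and an RBM35A difference with both raised was left out. Polysomal minus total is the mean over RBM35A+ and RBM35A- cells after raising, where a pair with both raised counts as 0 (PML in RBM35A- cells). Each group had 1 array, so error is given as the SD of a probe set around its gene's mean. R 4.3.3 and limma 3.58.1 (lmFit, eBayes) fitted the additive model, p-values were adjusted over all genes by the Benjamini-Hochberg method, and the fit was tested on simulated data. The number of arrays limits the precision.

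The members and lists were chosen with earlier results of these data known. All members are named, those below 5 mostly by their range. Other pathway genes are named at 1.5-fold or as the highest and lowest of a fraction. Others are named as examples after their values were seen. One gene of the pathway is not reported here. Other floors, probe set choices, centring and, for limma, an intensity trend were tried.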

Additional observations from a re-analysis of the deposited data

Results flagged for a closer look

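The second probe set of ISG15, which does not stand for the gene in the comparisons, was 0.23 higher in RBM35A+ than in RBM35A- polysomal RNA, at 8.85 and 8.62. This exceeded the probe set SD of 0.20 but is close to the SD of 0.22 over all genes, so it does not stand out among them.

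No group had enough arrays for a search for outlying samples.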

How the results depend on the processing

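The medians of the members moved by less than the SD of a single probe set under all 6 alternatives in all 4 comparisons. That SD is not the error of a median. It is larger than each of these medians, so a median could reach 0 within it, and it cannot show that the medians held. The polysomal RBM35A median went from -0.11 to -0.02 without probe sets of shared sequence. In total RNA it went from -0.03 to -0.11 with the mean of probe sets. Of 348 single values of members under these alternatives, 330 moved by less than that SD, and 18 moved further. Many could not move, since a floor leaves values above it unchanged and a choice of probe sets leaves genes with 1 probe set unchanged. With the mean of probe sets 6 of 58 moved further, and with centring 0 of 62. Where probe sets of shared sequence were left out, 5 of 50 moved further and 1 more was also reversed in sign. Of the 18, 4 also changed sign. Without probe sets of shared sequence, B2M was at 0.0058 for polysomal minus total, at 0.12 for its polysomal RBM35A difference and at 0.01 for the difference of differences; with the mean of probe sets, HLA-F was at 0.15 for polysomal minus total. Smaller values near 0 changed sign too, by less than the SD. Without those probe sets 0 members were 2-fold lower in polysomal RNA, and averaging a gene's probe sets left 1. With a floor of 6, 1 member was 2-fold higher in polysomal RNA, with TAP1 at 0.25, and with a floor of 4 or no floor 3 were, with IRF7 at 1.05. With a floor of 4 and with no floor, 1 member, PML at 0.60, was 1.5-fold higher in total RNA. With the mean of probe sets the polysomal RBM35A difference of B2M was -0.15, and IFI35 was at -0.02 in total and -0.07 (a bound) in polysomal RNA. With no floor, limma called 6 genes higher and 9 lower over all genes, against 0 and 0; under each of its alternatives it called 0 members. Values below 5 bound 3 members, and 1 array per group allows no leaving out of a replicate.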

Other observations

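Among other genes of the pathway, MICA, a stress-induced ligand of natural killer cells, read 9.90 in RBM35A+ and 9.73 in RBM35A- polysomal RNA, and 7.48 and 7.33 in total RNA. Its polysomal minus total difference of 2.41 was the highest of the 26 and exceeded the probe set SD of 0.73. STAT3 was at 1.06 and its other probe set was below 5 in polysomal RNA but read 5.77 in RBM35A+ and 6.08 in RBM35A- total RNA. The lowest were IRF8 (-1.23, a bound) and PLSCR1 (-1.07).

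Probe sets of JAK1, the kinase bound to interferon receptors, did not give one value. The RBM35A+ minus RBM35A- difference in total RNA was 0.12 for the one with the highest mean and -0.55 and -0.21 for the others. These others were below 5 in polysomal RNA. The 2 probe sets of CALR gave RBM35A+ minus RBM35A- differences of -0.12 and -0.73 in polysomal RNA, though 0.40 and 0.37 in total RNA.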
